A study of Mus musculus with 10 samples.

Results

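The miR-199 and miR-214 miRNAs are the mature products of 4 mouse hairpins, Mir199a-1, Mir199a-2, Mir199b and Mir214. The 4 hairpins were taken from the 1174 miRNA hairpins searched, and gave 5 mature arms that could be told apart among the 763 arms with reads. They were picked because their levels separated mouse Primordial Germ Cell-Like Cells (mPGCLCs) from the other cells of Embryoid Bodies (EBs), so their values between those cell types are a description and carry no test.

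Small RNA was sequenced from cells sorted out of male Day 6 EBs, in 10 libraries that form 5 groups of 2 biological replicates. mPGCLCs came from E14 mESCs (129/Ola strain) and from BG5 mESCs, which carry a Blimp1-GFP germline reporter (C57BL/6J/DBA/129 strain). Non-PGCLC cells, the surrounding cells of the EBs, came from E14, from BG5 and from SGET mESCs, which carry Stella-GFP and Esg1-tdTomato reporters (B6CBA/129 strain). Each background is 1 mESC line, and each line was sorted with its own markers, Ssea1 and Cd61 for E14, Ssea1 and Blimp1-GFP for BG5, and the 2 reporters for SGET in the study's methods, while the labels give the SGET gate for the samples. Line, strain, reporter and gate therefore cannot be told apart in any comparison between lines.

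A miRNA is cut from a hairpin transcript as a short duplex, and 1 strand of it (the 5p or the 3p arm, named by its side of the hairpin) is loaded into an Argonaute protein, which it guides to mRNAs mainly through its seed, bases 2 to 8. The miR-199 hairpins and Mir214 lie in introns of the dynamin genes on the opposite strand. Mir199a-2 and Mir214 sit together in the long noncoding RNA Dnm3os and are known as miRNAs of mesenchyme, skeletal progenitors and fibroblasts.

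The annotation placed Mir199a-2 at chr1:162217814-162217923 and Mir214 at chr1:162223368-162223477 of GRCm38, both on the plus strand within an exon of Dnm3os and opposite an intron of Dnm3. The pair is separated by 5444 bases. Mir199a-1 lay at chr9:21496495-21496564 on the minus strand opposite an intron of Dnm2, and Mir199b at chr2:32318460-32318569 on the plus strand opposite an intron of Dnm1.

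The mature sequences are shown from RefSeq (GRCm38.p6), 5′ to 3′ with the seed in capitals, because the arms were told apart by them and because the seeds bear on the shifted reads described further on.
miR-199a-3p and miR-199b-3p: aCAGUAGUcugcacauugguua
miR-214-3p: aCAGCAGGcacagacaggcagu
miR-199a-5p: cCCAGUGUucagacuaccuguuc
miR-214-5p: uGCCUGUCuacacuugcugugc
miR-761, a non-member with the seed of miR-214-3p: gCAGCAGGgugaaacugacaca

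The 3p arms of all 3 miR-199 hairpins are 1 sequence of 22 bases, so their reads were merged as miR-199-3p and cannot be split between loci. Mir199a-1 and Mir199a-2 also share their 5p arm, counted here as miR-199a-5p, and the 5p arm of Mir199b (miR-199b-5p) could be told apart from it. miR-214-3p matched miR-199a-3p at 8 of 22 bases counted from the 5′ end, and the seeds differ. No read was assigned to the Mir761 hairpin in the 10 libraries. Together the 5 arms held 435331 of 26395865 miRNA reads (1.65%), from 460 distinct sequences, and no read was shared with another hairpin.

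The libraries held between 7421061 and 14444567 reads, of which 14.97% to 34.5% were miRNA reads. Levels are reads per 1000000 reads of the library (RPM), so that 1 RPM stood for 7.42 to 14.4 reads. PCR copies stay in the counts, so the number of distinct sequences is given where reads are few, and exact intervals and read floors cover counting error only.

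miR-199-3p, the most abundant of the arms, was highest in BG5 non-PGCLC cells. It measured 13281 and 7569 RPM there, against 756 and 831 RPM in E14 non-PGCLC cells and 270 and 316 RPM in SGET non-PGCLC cells. In mPGCLCs it measured 10.9 and 12.1 RPM for E14 and 49.2 and 91.9 RPM for BG5. No 2 groups overlapped, and the order ran from BG5, E14 and SGET non-PGCLC cells to BG5 and then E14 mPGCLCs. Group means ± SD (n = 2 each) in that order were 10425 ± 4039, 794 ± 52.9, 293 ± 32.6, 70.6 ± 30.2 and 11.5 ± 0.833 RPM. By rank, miR-199-3p was number 2 of 522 arms with reads in BG5 non-PGCLC cells, 36 of 479 in E14 and 85 of 508 in SGET non-PGCLC cells, 177 of 545 in BG5 mPGCLCs and 299 of 548 in E14 mPGCLCs.

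miR-214-3p, the other main arm, ran in nearly the same order at a lower level. It measured 5985 and 4486 RPM in BG5, 260 and 291 RPM in E14, and 101 and 35.5 RPM in SGET non-PGCLC cells. mPGCLCs had 62.9 and 22.8 RPM for BG5 and 0.483 and 6.96 RPM for E14. The SGET non-PGCLC and BG5 mPGCLC groups overlapped, with means of 68.4 ± 46.5 and 42.8 ± 28.4 RPM (SD, n = 2), while the other neighbours in the order did not. The E14 mPGCLC values rest on 4 reads in 1 library and 56 in the other, and 55 of those 56 were copies of a single 18-nt sequence. In BG5 non-PGCLC cells miR-214-3p was number 13 among the arms.

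miR-199a-5p, the partner strand of miR-199-3p, measured 2412 and 980 RPM in BG5 non-PGCLC cells, 34.5 and 111 RPM in E14 and 52.8 and 73.6 RPM in SGET non-PGCLC cells. In mPGCLCs it had 13.9 and 0.88 RPM for BG5 and 12.2 and 0 RPM for E14. E14 and SGET non-PGCLC cells overlapped, as did the mPGCLC groups, and BG5 non-PGCLC cells stood above all others. In the first E14 mPGCLC library 100 of its 101 reads were copies of 1 sequence, and in the second no read was found, which allows up to 0.373 RPM. The last base did not match the hairpin in 100% of the reads of the first library, against a mean of 11.5% in BG5 non-PGCLC cells. Where whole reads had to match exactly, 0 of them were left.

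Most miR-199b-5p reads came from BG5 non-PGCLC cells, with 1505 reads (159 RPM) in the first library and 1147 reads (79.4 RPM) in the second. Outside them it had 114 reads (8.84 RPM) in the second E14 non-PGCLC library, 1 read in the first SGET library and 0 in the other 6. miR-214-5p had 1835 reads (194 RPM) and 731 reads (50.6 RPM) in BG5 non-PGCLC cells, and 45 to 150 reads in 1 library each of E14 non-PGCLC, BG5 mPGCLC and SGET non-PGCLC cells, with at most 2 distinct sequences in each. Both minor arms are thus too thinly read outside BG5 non-PGCLC cells for their order to be given.

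**Figure D1:**
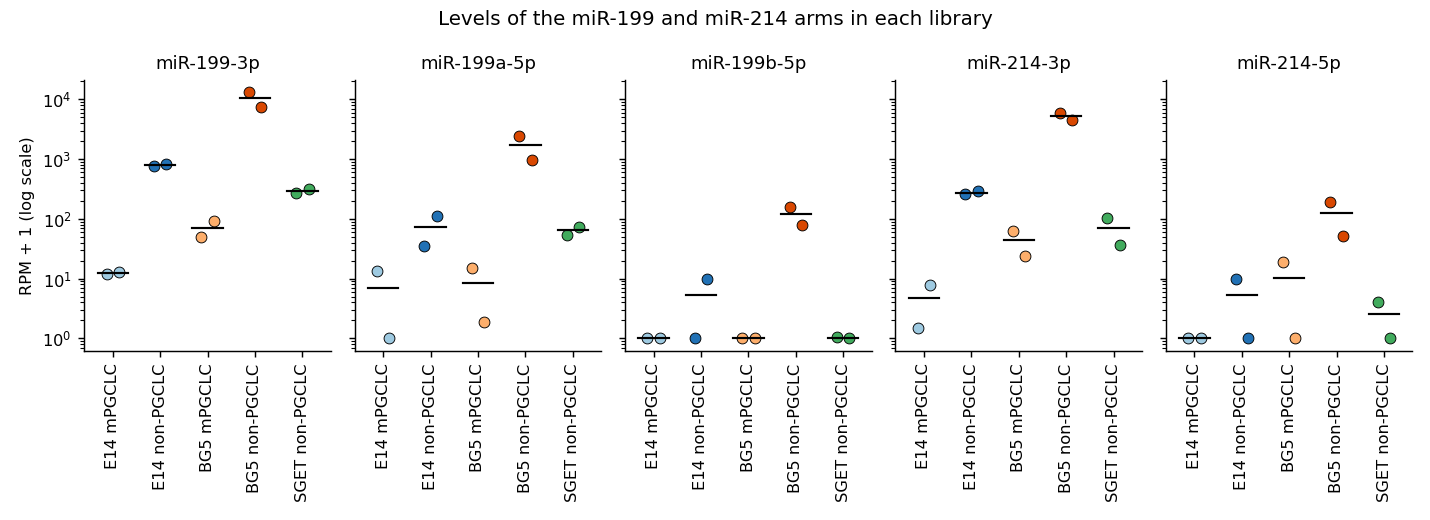
RPM + 1 (log scale) of the 5 miR-199 and miR-214 arms in the 10 libraries, by group, with points for libraries and bars for group means. Points at the bottom of a panel have 0 reads, and BG5 non-PGCLC libraries are the highest in every panel.

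Summed over the 5 arms, the members made up 6.44% ± 0.475 of the miRNA reads of BG5 non-PGCLC cells (SD, n = 2). The share was 0.578% in E14 and 0.137% in SGET non-PGCLC cells, 0.0718% in BG5 mPGCLCs and 0.00643% in E14 mPGCLCs, each a mean over 2 libraries.

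Between cell types, both mPGCLC groups were lower than the non-PGCLC cells of their own line. For mean miR-199-3p the gap was 69.2-fold (E14) and 148-fold (BG5), and for mean miR-214-3p 74.0-fold and 122-fold. For miR-199a-5p the ratios were 12.0-fold and 229-fold, the first resting on the 101 reads of 1 E14 mPGCLC library. miR-199b-5p had 0 reads in mPGCLCs, and a floor of 3 reads over the group put BG5 mPGCLCs at least 735-fold lower. The same floor gave at least 24.04-fold for miR-199b-5p and at least 23.8-fold for miR-214-5p in E14, where the cell types overlapped for both. miR-214-5p was 13.5-fold lower in BG5 mPGCLCs, a ratio that rests on 150 reads of the first library, 149 of them copies of 1 sequence, against 0 reads in the second.

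In BG5 all 5 arms, and in E14 3 of 5, had each mPGCLC library below each non-PGCLC library in RPM, as did 35.3% of the 561 tested arms in BG5 and 14.4% in E14. Over all arms tested by edgeR, 14.8% (83 of 561) were called between the cell types at an adjusted p of 0.05, 7.13% lower and 7.66% higher in mPGCLCs (40 and 43 arms, or 45 and 30 under total-read scaling). Nothing is read from the members' counts against these shares, because the members were chosen on that difference. In sorted bulk samples, fewer cells that hold a miRNA and less of it per cell cannot be told apart.

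The read depth behind these ratios was uneven. In BG5 non-PGCLC libraries miR-199-3p was read as 127 and 116 distinct sequences, whereas in E14 mPGCLCs its 90 and 97 reads came from 4 sequences each, and in BG5 mPGCLCs its 406 and 940 reads from 6 and 9. With each distinct sequence counted once, a choice made after seeing the data, the log2 ratio of mPGCLC to non-PGCLC miR-199-3p was -2.80 in E14 and -3.74 in BG5, against -6.11 and -7.21 on reads. For miR-214-3p it was -2.62 and -3.49, against -6.21 and -6.93. The miR-214-3p ratio of E14 also rests on the second mPGCLC library, and was -9.15 without it and -5.31 without the first. That of BG5 was -7.84 without the first BG5 mPGCLC library. The miR-199a-5p ratio of BG5 was -7.84, and -10.91 without the first BG5 mPGCLC library. In E14 it was -3.58, and between -4.19 and -2.50 over the 3 ways of leaving out 1 library that kept reads of it in both cell types.

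The lines differed among themselves in these miRNAs. The contrasts between lines were not part of the rule that picked the members, but were chosen with earlier results of these data known. The SGET contrasts share the E14 and BG5 non-PGCLC libraries with that rule. Arms picked as high in those libraries can come out lower in SGET through the choice alone, so their p-values there are not free of it. All line contrasts were tested with edgeR's quasi-likelihood test and Benjamini-Hochberg adjustment over 561 arms. Log2 changes were scaled by the trimmed mean of M-values (TMM). In non-PGCLC cells miR-199-3p was higher in BG5 than in E14 by 2.63 on the log2 scale (SE 0.38, adjusted p = 6.81e-05, edgeR) and miR-214-3p by 3.2 (SE 0.76, adjusted p = 0.00613, edgeR). Every BG5 library lay above every E14 library in RPM for both, as for 39.9% of all tested arms. miR-199a-5p differed by 3.38 (SE 1.35), which did not pass (adjusted p = 0.117, edgeR), although it passed in 9 of 20 alternatives, among them total-read scaling (adjusted p = 0.0138, edgeR) and the fits without the first or the second E14 mPGCLC library (adjusted p = 0.0154 and 0.0128, edgeR). Against these calls of 2 of 4 arms, with miR-199b-5p left out because it passed the filter on low counts only through its reads in BG5 non-PGCLC cells, 15.3% of all arms were called in this contrast (86 of 561).

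The scaling moved the size of this difference. The TMM factors of the BG5 non-PGCLC libraries were 1.86 and 1.26, and scaling to total reads shifted the median log2 change of all arms by 1.03 in this contrast and changed the split of calls from 44 higher and 42 lower to 72 higher and 22 lower. Under total-read scaling miR-199-3p differed by 3.72 and miR-214-3p by 4.25 on the log2 scale, a 13.1-fold and a 19.0-fold ratio of mean RPM. The miR-214-3p call was lost when the first or the second E14 non-PGCLC library was left out, with log2 changes of 3.06 and 3.37 (adjusted p = 0.145 and 0.106, edgeR).

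Line BG5 was also above E14 among the mPGCLCs. miR-199-3p differed by 2.59 (SE 0.38, adjusted p = 0.000129, edgeR) and miR-214-3p by 3.31 on the log2 scale (SE 0.77, adjusted p = 0.00748, edgeR), and again the libraries did not overlap, as for 28.2% of all tested arms with BG5 above E14. Without the second BG5 mPGCLC library the miR-199-3p difference was 1.70, and that of miR-214-3p was 2.41 without the first E14 mPGCLC library and 6.17 without the second. Both calls held in each of the 10 fits that left out 1 library, with adjusted p of at most 0.00356 and 0.0443 (edgeR). The other arms did not pass, miR-199a-5p with -0.11 (SE 1.25, adjusted p = 0.992, edgeR) and miR-214-5p with 9.44 (adjusted p = 0.352, edgeR), while miR-199b-5p was at 0 reads in all 4 mPGCLC libraries. The miR-199a-5p difference turned to 9.24 and passed without the first E14 mPGCLC library (adjusted p = 0.00908, edgeR), and was 9.09 where whole reads had to match exactly (adjusted p = 0.000198, edgeR). Without the first BG5 mPGCLC library miR-214-5p had no reads left in these groups. The background for these 2 of 4 arms was 10.2% (57 of 561). The mPGCLC calls rest on few reads and on the spread of the other groups. With the 4 mPGCLC libraries fitted alone they were lost, with differences of 2.59 for miR-199-3p (adjusted p = 0.144, edgeR) and 3.36 for miR-214-3p (adjusted p = 0.29, edgeR), and with each distinct sequence counted once miR-199-3p differed by 0.89 (adjusted p = 0.259, edgeR).

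No difference between lines in the cell type effect of the 2 main arms was detectable with these libraries. The interaction (the BG5 effect minus the E14 effect) was -0.05 for miR-199-3p (SE 0.51, adjusted p = 1, edgeR) and 0.10 for miR-214-3p (SE 0.97, adjusted p = 1, edgeR). It was -3.49 for miR-199a-5p (SE 1.81, adjusted p = 0.393, edgeR). None of the 4 arms passed, again without miR-199b-5p, against 5.70% of all arms (32 of 561). By raw p none of the 4 was under 0.05, and DESeq2 called none of them either. Under total-read scaling, which shifted the median interaction of all arms by -0.81 and changed the split of its calls from 22 higher and 10 lower to 14 and 17, miR-199-3p had -1.09 (adjusted p = 0.33, edgeR) and miR-214-3p -0.73 (adjusted p = 0.888, edgeR). The value for miR-214-3p rests on the second E14 mPGCLC library, and without it was 2.97 (adjusted p = 0.0493, edgeR). With reads of 20 to 24 nt only, which leaves out the 18-nt sequence of that library, it was 3.68 (adjusted p = 0.0015, edgeR). That for miR-199a-5p was -4.49 without the same library (adjusted p = 0.0493, edgeR), but turned to 5.86 without the first E14 mPGCLC library, where it did not pass, and was -6.06 without the first BG5 mPGCLC library.

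SGET non-PGCLC cells had the least of the main arms among the non-PGCLC groups. As given above, the p-values of SGET against BG5 or E14 are not free of the choice of members. Against BG5, miR-199-3p was lower by a log2 change of -4.59 (SE 0.41, adjusted p = 1.86e-07, edgeR) and miR-214-3p by one of -5.67 (SE 0.85, adjusted p = 6.77e-05, edgeR). The latter was -6.78 without the first and -4.72 without the second SGET library, and passed in both. miR-199a-5p also passed, with -4.15 (SE 1.40, adjusted p = 0.0492, edgeR), but not without the first or second E14 non-PGCLC library, the first BG5 non-PGCLC library, or the first or second SGET library, where it ranged from -4.15 to -3.44 with adjusted p from 0.0944 to 0.116 (edgeR). miR-214-5p had -5.51 (adjusted p = 0.337, edgeR). miR-199b-5p had 1 read against 2652, and nothing is read from its test for the reason above. In this contrast 18.7% of all arms were called (105 of 561), 51 higher and 54 lower, or 34 and 69 under total-read scaling, which shifted the median by -0.56.

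Against E14, 4.63% of all arms were called in SGET non-PGCLC cells (26 of 561), 10 higher and 16 lower. The split was 16 and 8 under total-read scaling, which shifted the median by 0.16. By mean RPM miR-199-3p was 2.71-fold lower in SGET, and its log2 change under total-read scaling was -1.44 (adjusted p = 0.0323, edgeR). With TMM the log2 change of miR-199-3p was -1.96 (SE 0.37, adjusted p = 0.00567, edgeR). The call was lost without the first or the second E14 non-PGCLC library, where the change was -2.09 or -1.81 (adjusted p = 0.0512 and 0.105, edgeR). miR-214-3p, with -2.47 (SE 0.73), did not pass (adjusted p = 0.076, edgeR), although both SGET libraries lay below both E14 libraries, as for 14.1% of all tested arms. It passed in 7 of the 10 fits that left out 1 library. miR-199a-5p overlapped between the groups (-0.77, SE 1.24, adjusted p = 0.856, edgeR).

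**Figure D2:**
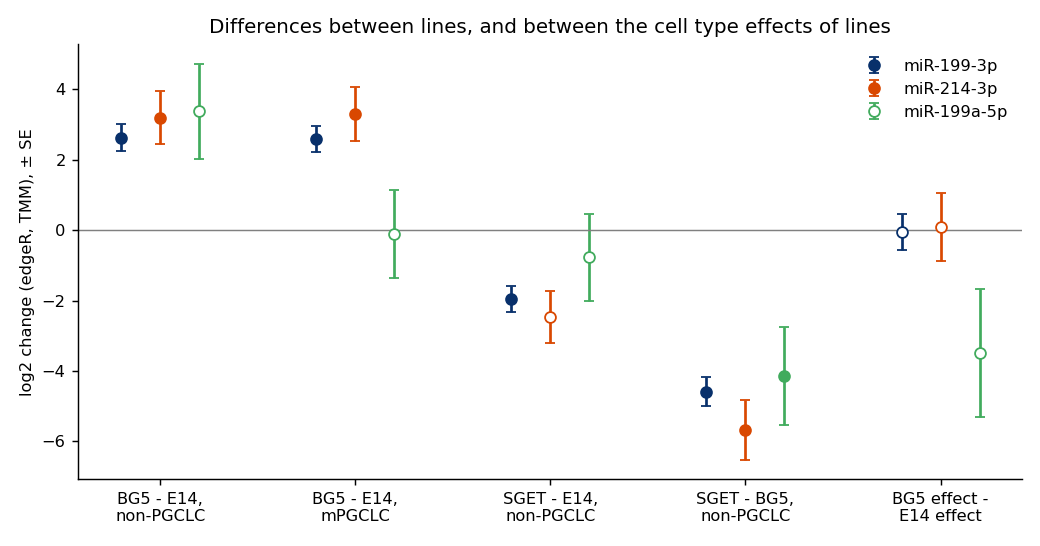
Log2 change (edgeR, TMM scaling) ± SE of miR-199-3p, miR-214-3p and miR-199a-5p in 5 contrasts, with filled points for an adjusted p under 0.05. miR-199-3p and miR-214-3p are above 0 in both BG5 against E14 contrasts and below 0 in both SGET contrasts, and near 0 in the interaction.

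The proportions of the members to one another varied less than their levels in the libraries with many reads. In non-PGCLC libraries the miR-214-3p reads per miR-199-3p read were 0.344 and 0.350 for E14, 0.451 and 0.593 for BG5, and for SGET 0.376 and 0.112. In mPGCLCs the values were 0.0444 and 0.577 for E14 and 1.28 and 0.248 for BG5, so these replicates differed more than the groups did. The 3p arm was the main strand of both families in non-PGCLC cells. Of the miR-199 reads of non-PGCLC libraries, the 5p arms held 4.36% and 12.6% for E14, 16.2% and 12.3% for BG5, and for SGET 16.4% and 18.9%. For miR-214 the 5p arm held 3.26% and 0% (E14), 3.14% and 1.12% (BG5) and 2.99% and 0% (SGET).

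The 5p reads are the only measure of which miR-199 locus was used, since the 3p sequence is common to all 3. miR-199b-5p held 6.19% (exact 95% interval 5.89 to 6.50) and 7.49% (7.08 to 7.92) of miR-199 5p reads in the BG5 non-PGCLC libraries. It held 0% (0 to 1.43) and 7.35% (6.10 to 8.76) in E14 and 0.131% (0.00333 to 0.730) and 0% (0 to 0.512) in SGET non-PGCLC libraries. The BG5 replicates had a mean of 6.84% ± 0.921 (SD, n = 2), and both lay above both SGET libraries. The intervals of the 2 replicates did not overlap in BG5 or in E14, but they count copies as separate reads. In the second E14 library 113 of the 114 miR-199b-5p reads were copies of 1 sequence. In the first, 254 of the 256 miR-199a-5p reads were. No test was made of these shares.

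The 5′ ends of the reads separated the main arms. A read that starts 1 base earlier or later than the RefSeq sequence has another seed. In BG5 non-PGCLC cells, where both libraries held many reads, 50.4% ± 2.54 of miR-214-3p reads began at the RefSeq start and 45.7% ± 1.09 began 1 base before it (SD, n = 2). Over the 162 arms with at least 1000 reads in both of these libraries, the median was 96.5% at the reference start and 0% 1 base before. miR-214-3p had the 7th lowest share at the reference start. miR-199-3p had 72.1% ± 0.467 at the start, 10.7% ± 0.0955 before it and 16.1% ± 0.376 1 base after it, and ranked 21st, and miR-199a-5p had 96.9% ± 0.639 at the start.

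The most frequent reads of the 2 main forms of miR-214-3p, and of the forms of miR-199-3p, are shown as sequenced. Bases 2 to 8 of the read are in capitals, so that the shift of the seed can be seen.
miR-214-3p, RefSeq start: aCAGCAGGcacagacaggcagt
miR-214-3p, 1 base before: tACAGCAGgcacagacaggcag
miR-199-3p, RefSeq start: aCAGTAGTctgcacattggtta
miR-199-3p, 1 base before: tACAGTAGtctgcacattggtt
miR-199-3p, 1 base after: cAGTAGTCtgcacattggtta

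The seed of the earlier miR-214-3p form, ACAGCAG, was that of no mature miRNA in the RefSeq table, and the same held for the seeds of the shifted miR-199-3p forms. The earlier form held 58758 miR-214-3p reads over the 10 libraries and the RefSeq start 65904. By library, its share was 45.0% and 46.5% in BG5, 10.9% and 54.5% in E14 and 25.6% and 71.8% in SGET non-PGCLC cells. Outside BG5 the replicates were far apart, so no difference between lines was seen beyond their spread. The E14 and SGET libraries held only 347 to 3751 reads of the arm in 8 to 25 distinct sequences.

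**Figure D3:**
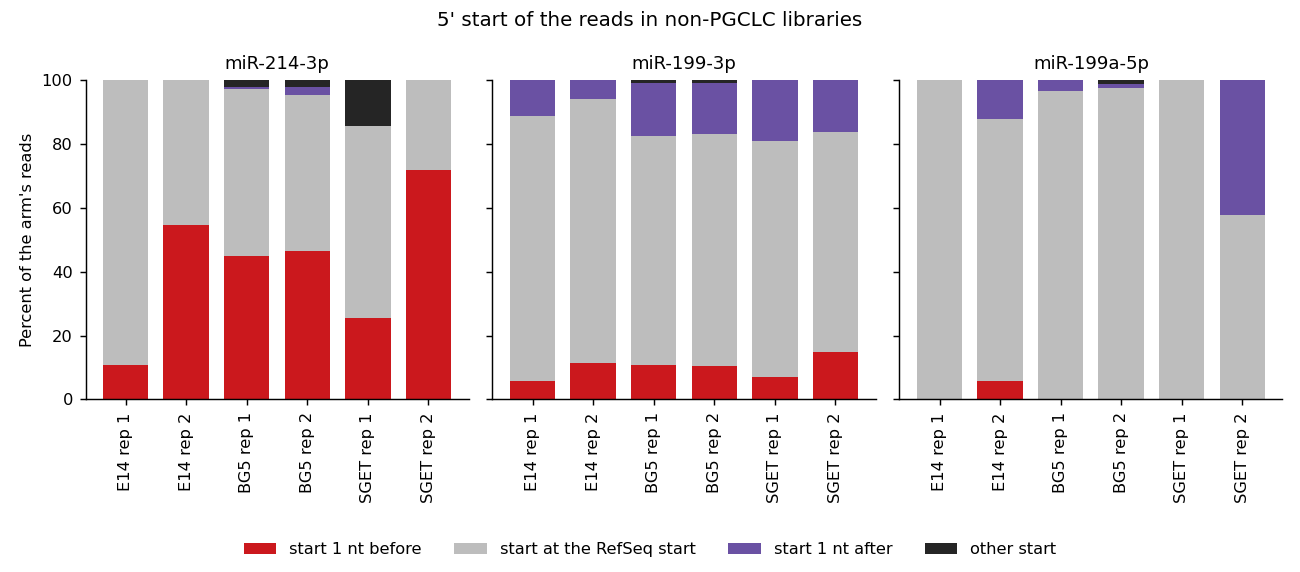
Percent of the reads of miR-214-3p, miR-199-3p and miR-199a-5p in the 6 non-PGCLC libraries that begin 1 base before, at or 1 base after the RefSeq start, or elsewhere. miR-214-3p has 45.0% and 46.5% of reads 1 base before the start in BG5, and miR-199-3p at most 14.9% in any of these libraries.

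At the 3′ end, miR-214-3p reads also departed from the hairpin more often than most. The last base did not match the hairpin in 35.1% ± 3.62 of its reads in BG5 non-PGCLC cells (SD, n = 2), against a median of 13.6% over the same 162 arms, the 23rd highest share. Reads that ended in 1 or more unmatched A and nothing else unmatched made up 25.5% ± 0.594 of miR-214-3p reads, and those ending in unmatched U 3.70% ± 0.917. In E14 non-PGCLC cells the unmatched last base was at 29.8% and 33.0%, and in SGET at 25.6% and 1.15%. miR-199-3p had 12.1% ± 0.475 in BG5 and 12.0% ± 0.926 in E14 non-PGCLC cells, close to the median, with 5.97% ± 0.231 and 5.81% ± 0.482 ending in unmatched A. Its SGET libraries were lower, with 2.16% and 0.162%.

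The hairpins gave nearly no other product. Reads on the strand opposite to the 4 hairpins numbered 0 of 103197012 over all libraries, which allows up to 0.0291 RPM. Of the reads on the sense strand, only 1 sequence began more than 5 bases from the start of an arm, an 18-nt read at base 13 of the Mir214 hairpin with 144 copies in the first BG5 non-PGCLC library, which is counted in miR-214-5p.

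Among the other miRNAs, those whose levels ran most like miR-199-3p over the 10 libraries were named by Pearson's r of log2(RPM + 1) with it, out of 560 arms. miR-125b-5p, a product of Mir125b-1 and Mir125b-2, came first (r = 0.987), before the members' own miR-214-3p (r = 0.961). miR-351-5p (0.958), miR-322-3p (0.936), miR-100-5p (0.916), miR-335-5p (0.901) and miR-501-3p (0.898) followed. miR-199a-5p was 7th with 0.899, miR-199b-5p 15th with 0.838 and miR-214-5p 52nd with 0.717. The points share library depth, cell type and line, so the r values describe the pattern only.

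miR-125b-5p measured 4361 and 4639 RPM in BG5, 311 and 398 RPM in E14 and 96.8 and 199.3 RPM in SGET non-PGCLC cells, and 3.38 to 60.8 RPM in the 4 mPGCLC libraries. The X-linked partner miRNAs miR-351-5p and miR-322-3p had narrower ranges, 60.5 to 2944 RPM and 26.1 to 1946 RPM over the 10 libraries. miR-335-5p, an intronic miRNA of Mest, ran from 65.9 to 3920 RPM.

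**Figure D4:**
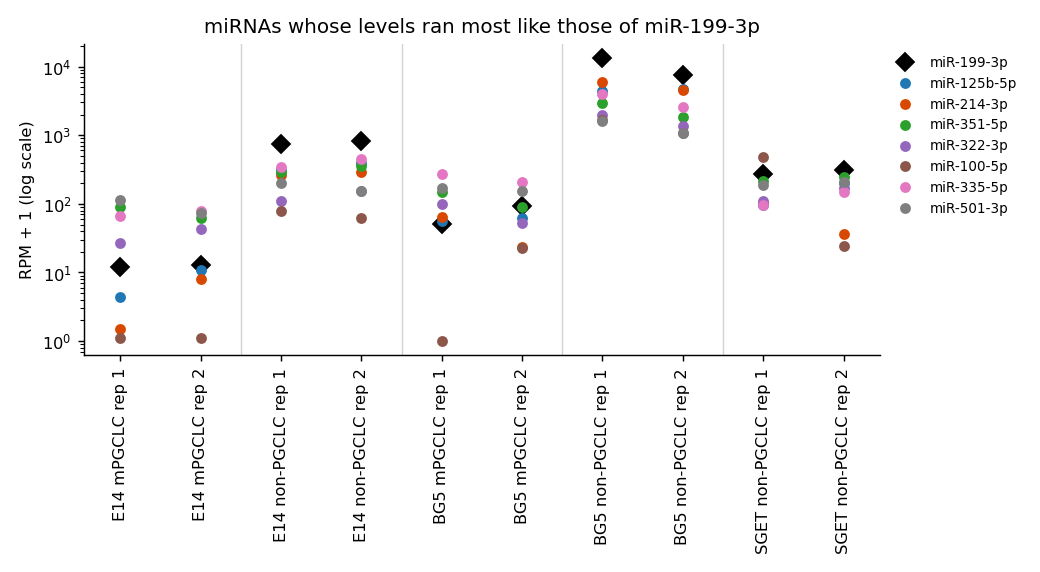
RPM + 1 (log scale) of miR-199-3p (diamonds), of miR-214-3p and of the 6 arms outside the members with the highest r with miR-199-3p, in each of the 10 libraries. All arms shown are highest in the BG5 non-PGCLC libraries, and miR-199-3p is above the others there.

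The members' name as mesenchymal miRNAs was set against a list of other miRNAs taken here as mesenchymal, whose restriction to mesenchyme was not tested. Of 26 such arms tested, 6 were called lower in mPGCLCs and 0 higher by edgeR (7 and 2 at an unadjusted p under 0.05, and 1 higher by DESeq2, median log2 change -1.63, against 0.14 over all arms), beside 7.13% lower and 7.66% higher over all arms. They were miR-125b-5p (-5.78, SE 0.40, adjusted p = 2.28e-08, edgeR), miR-100-5p, miR-99a-5p, miR-10a-5p, miR-143-3p (-1.83, SE 0.22, adjusted p = 8.59e-06, edgeR) and miR-21a-5p (-0.60, SE 0.17, adjusted p = 0.0252, edgeR), where those without values were named after their values were seen. miR-99a-5p and the last 2 overlapped between the cell types in E14. There miR-143-3p had 530 and 628 RPM in mPGCLCs against 611 and 550 RPM, whereas in BG5 it had 447 and 185 RPM against 6287 and 4605 RPM. miR-21a-5p had 1365 and 1501 RPM against 1515 and 1403 RPM in E14, and 2808 and 1508 RPM against 8149 and 5477 RPM in BG5. The number called lower fell to 3 without the first or the second E14 mPGCLC library, the first E14 non-PGCLC library or the second BG5 mPGCLC library. The summed level of the list was 18601 and 26499 RPM in BG5 non-PGCLC cells and 2361 to 4409 RPM in BG5 mPGCLCs. In E14 it was 2901 and 3333 RPM in mPGCLCs and 3105 and 3465 RPM in non-PGCLC cells, so that the cell types overlapped there. The 3 main member arms did not overlap in E14, but neither did miR-125b-5p, miR-100-5p and miR-10a-5p of the list when taken singly. In SGET the summed level was 5509 and 5831 RPM.

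Of pluripotency miRNAs of the miR-290 and miR-302 clusters, 14 of 22 arms were called higher in mPGCLCs and 0 lower (0 lower at an unadjusted p under 0.05 and by DESeq2), beside 7.66% higher and 7.13% lower over all arms, led in level by miR-292-5p (2.09, SE 0.16, adjusted p = 9.34e-08, edgeR), miR-292-3p and miR-290a-5p. The called miR-302b-3p, miR-302d-3p and miR-291b-5p, named after their values were seen, overlapped between the cell types in E14. miR-302b-3p had 245 and 146 RPM in E14 mPGCLCs against 218 and 221 RPM in E14 non-PGCLC cells. In BG5 it had 3068 and 2607 RPM against 287 and 266 RPM. The summed level of the list was lowest where the members were highest. It was 8200 and 9412 RPM in BG5 non-PGCLC cells, against 93596 to 224377 RPM in the 6 libraries of E14 and SGET. BG5 mPGCLCs had 53358 and 76281 RPM. Against the same 7.66% of all arms, 3 of 10 epithelial miRNAs were called higher, miR-200c-3p, miR-200b-3p and miR-205-5p. Of endothelial and blood miRNAs 1 of 8 was (miR-150-5p, 4.90, SE 1.29, adjusted p = 0.0142, edgeR), and 0 without the first E14 mPGCLC library or the first or second E14 non-PGCLC library. miR-150-5p overlapped between the cell types in E14, with 76.1 and 18.8 RPM in mPGCLCs against 55.0 and 72.6 RPM. In BG5 it had 25.9 and 6.55 RPM in mPGCLCs and 0 reads in both non-PGCLC libraries. Of 3 muscle, 4 neural, and 5 endoderm and liver arms edgeR called 0 in either direction. At an unadjusted p under 0.05 the counts were 1 muscle arm higher and 0 of the others, and DESeq2 called 1 muscle and 1 endoderm and liver arm higher and 0 neural arms. The part of these cell types in the members' levels was not tested.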

How the data were processed

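As the labels and the published methods state, the authors sorted cells into Qiazol, took the small RNA fraction, made libraries with a kit whose adapters end in random bases, trimmed the reads with cutadapt 3.2 and mapped them to GRCm38 with STAR 2.5.3a. The deposited values are raw read counts of each distinct sequence, 1 file a library. The random bases were removed before that, so copies made by PCR cannot be collapsed.

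Here, reads of 18 to 26 nt were matched to the sense strand of 1174 GENCODE vM21 miRNA hairpins, with the first 18 nt exact and at most 2 later mismatches. Arms that shared at least 50% of the smaller arm's reads were merged, and other ambiguous reads went to the arm with most unique reads. Groups and replicate numbers came from the sample labels. Counts were tested with edgeR 4.0.16 (R 4.3.3), quasi-likelihood, 5 group means, TMM on total reads, 561 arms after filterByExpr, and a Benjamini-Hochberg adjusted p of 0.05, with DESeq2 1.42.0 as an alternative. On simulated counts of 561 arms for BG5 against E14 non-PGCLC cells, with 200 arms changed 8-fold, 21.5% were recovered at the spread of the real data with 0 false calls, and 99.5% at a dispersion of 0.1 with 3 false calls. Depth was 7421061 to 14444567 reads a library.

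The members, lists, contrasts and rule for naming were chosen with earlier results of these data known. All arms of the 4 hairpins are named, as are the 6 arms outside the members most like miR-199-3p by Pearson's r. Also named are up to 3 arms of each marker list by mean RPM where called, and every miRNA sharing a member's seed. Further list arms were named after their values were seen. miR-199b-5p is not in the sequence table used, so its sequence is not shown.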

Additional observations from a re-analysis of the deposited data

How the results depend on the processing

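Of the line contrasts of the members, miR-199-3p and miR-214-3p kept their direction under each alternative in the contrasts of BG5 with E14 and of SGET with BG5 or E14, and the changes of their calls are given here. miR-199b-5p passed the low-count filter only through BG5 non-PGCLC cells, so its calls against them are listed but carry no weight. The cause of each change was not tested.

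With DESeq2, 149 arms were called for BG5 against E14 non-PGCLC cells, 77 for SGET against E14, 175 for SGET against BG5, 103 for BG5 against E14 mPGCLCs, 78 for the interaction and 147 between cell types. DESeq2 also gave miR-214-3p a call in SGET against E14 (-2.36), miR-199b-5p one in SGET against BG5 (-10.93), and took the call of miR-199a-5p there (-4.15). Its list calls higher in mPGCLCs were 1 other mesenchymal, 5 epithelial, 1 muscle and 1 endoderm and liver arm.

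With total-read scaling miR-199a-5p passed in BG5 against E14 non-PGCLC cells (4.54) and miR-199b-5p in SGET against BG5 (-11.23). Without a filter on low counts miR-199a-5p passed in the former contrast (3.40) and in the interaction (-3.54), and miR-214-3p in SGET against E14 (-2.46). With at least 50 reads in 2 libraries miR-199a-5p lost its call in SGET against BG5 (-4.17). Fitting only the groups compared gave miR-199a-5p 3.05 in BG5 against E14 non-PGCLC cells and miR-199b-5p -10.40 in SGET against BG5, both past the threshold, 9 arms in SGET against E14, and in mPGCLCs BG5 against E14 took the calls of miR-199-3p (2.59) and miR-214-3p (3.36).

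When whole reads had to match exactly, miR-199a-5p passed in BG5 against E14 non-PGCLC cells (3.37) and turned to 9.09 in mPGCLCs, the 5p share of miR-214 in BG5 non-PGCLC cells was 3.80%, and miR-214-3p per miR-199-3p was 0.253 in E14 and 0.337 in BG5 non-PGCLC cells. With 20 to 24 nt only, miR-214-3p passed in SGET against E14 (-2.79) and in the interaction (3.68), its log2 cell type ratio in E14 was -9.78, and its ratio to miR-199-3p in E14 non-PGCLC cells 0.337. Per miRNA read, and with TMM, the cell type ratio of miR-199-3p in E14 was -6.83 and -6.31.

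With each distinct sequence counted once, added after seeing the data, miR-199a-5p passed in BG5 against E14 non-PGCLC cells (1.65), miR-214-3p in SGET against E14 (-0.97), and miR-199-3p lost its mPGCLC call (0.89). Cell type ratios were -2.80 and -3.74 for miR-199-3p, -2.62 and -3.49 for miR-214-3p (E14 and BG5) and -3.97 for miR-199a-5p in BG5. The 5p share of miR-199 was 21.8%, 30.9% and 31.2% in E14, BG5 and SGET non-PGCLC cells, that of miR-214 4.23% in BG5, and the miR-199b share 12.8% in BG5 and 5% in SGET. miR-214-3p per miR-199-3p was 0.75 in E14 mPGCLCs and 0.664, 1.13 and 0.818 in E14, BG5 and SGET non-PGCLC cells. Of the lists, 1 other mesenchymal and 0 endothelial and blood arms were called higher.

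Leaving out 1 library at a time on the same 561 arms, a lone library being taken to vary like the other groups, gave these ranges. miR-199a-5p ran from 2.73 to 4.57 in BG5 against E14 non-PGCLC cells, -4.47 to -3.44 in SGET against BG5, -2.68 to 9.24 in BG5 against E14 mPGCLCs and -6.06 to 5.86 in the interaction. In mPGCLCs it turned to 9.24 without the first E14 library. miR-214-3p ran from 3.01 to 3.37 in BG5 against E14 non-PGCLC cells (call lost without the first or second E14 non-PGCLC library, adjusted p = 0.145 and 0.106, edgeR), -3.57 to -1.72 in SGET against E14 and -0.79 to 2.97 in the interaction, and miR-199-3p from -2.09 to -1.81 in SGET against E14 (call lost without the same libraries, adjusted p = 0.0512 and 0.105, edgeR), where 2 to 43 arms were called. Between cell types the log2 ratio of miR-199a-5p in BG5 ran from -10.91 to -6.93 and that of miR-214-3p in E14 from -9.15 to -5.31. The lists gave 3 to 7 other mesenchymal arms lower and 0 to 2 higher, 0 to 1 endothelial and blood and 0 to 1 neural arms higher.

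Differences that passed in neither fit also changed sign. For miR-199a-5p, BG5 minus E14 mPGCLCs (-0.11) became 0.27 with total-read scaling, 0.04 with the replicate block and 1.23 with distinct sequences, and its interaction 5.72 with whole reads exact. The interaction of miR-199-3p (-0.05) became 0.35 with miRNA reads as library size and 0.09 with whole reads exact, that of miR-214-3p (0.10) became -0.73 with total-read scaling, -0.03 with DESeq2 and -0.42 with distinct sequences, and that of miR-214-5p (5.73) became -0.14 with the replicate block. Without 1 library, SGET minus E14 ran from -1.41 to 0.42 for miR-199a-5p, -9.01 to 2.07 for miR-199b-5p and -8.85 to 7.17 for miR-214-5p, BG5 minus E14 mPGCLCs from -0.00 to 10.48 for miR-214-5p, and the interaction from -0.94 to 0.50 for miR-199-3p and -3.71 to 6.77 for miR-214-5p.

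With the replicate number as a replicate block, miR-199a-5p passed in BG5 against E14 non-PGCLC cells (2.90) and miR-214-3p in SGET against E14 (-2.45), and no other member's call changed. Calls went from 86 to 96 in BG5 against E14 non-PGCLC cells and from 26 to 35 in SGET against E14. The labels do not say whether libraries with the same number came from the same EBs. Deviations of same-numbered libraries from their group means correlated at -0.055 in E14 and 0.029 in BG5 over 561 arms, and were not compared across lines, so the numbers were not taken as pairs.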
